A study of Mus musculus with 18 samples.

Results

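The baseline transcriptomes of 2 mouse mammary tumour cell lines, 168FARN and 67NR, were compared. They are sister lines derived from one spontaneous mouse mammary tumour, and the study uses both as non-metastatic models. RNA-seq libraries were made from 3 replicates each of 168FARN WT and 67NR WT cells, all grown in the same DMEM-based medium without treatment. These were 6 of the 18 libraries of the series, and the libraries of *Kmt2c* KO and *Kmt2d* KO cells were not part of the comparison. The libraries were chosen by their labels alone. Each line was counted in a table of its own. The samples of both lines are titled WT, but the 168FARN WT columns alone are named for a control sgRNA. Line, table and control sgRNA therefore cannot be told apart. For that reason a gene was called only at a difference of over 4-fold, a log2 fold change over 2, with an adjusted p under 0.05 in edgeR's quasi-likelihood test. Fold changes are 168FARN over 67NR, and levels are CPM (counts scaled to the size of the library) after TMM scaling, listed in the order of replicates 1, 2 and 3.

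Epithelial cells hold together through E-cadherin, tight junctions and desmosomes, and they keep this state through transcription factors such as *Grhl2* and *Ovol2* and the splicing factors *Esrp1* and *Esrp2*. Mesenchymal cells lack these junctions, build on the intermediate filament vimentin and express repressors of epithelial genes such as *Zeb1* and *Twist1*. Mammary tumour lines lie at different points between these states, and growth factor receptors, matrix proteins and cytokines commonly differ with them.

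The 168FARN libraries held between 28282313 and 43276979 counts on the genes present in both tables, and the 67NR libraries between 44808817 and 78955350. The correlation of log2(CPM + 1) was 0.954 to 0.997 within 168FARN, 0.950 to 0.996 within 67NR and 0.808 to 0.832 between the lines. Replicate 3 stood apart from replicates 1 and 2 in both lines. The ribosomal RNA precursor *Rn45s* took 1.02 to 1.33% of the counts in 168FARN and 0.654 to 0.704% in 67NR. The study's methods define replicates as collections of a cell line 1 passage apart, so p-values measure the spread between such collections.

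Of 12994 genes tested, 804 were called higher in 168FARN and 1450 higher in 67NR, so that 6.19% and 11.2% of the genes were called in each direction and 17.3% in either. The median log2 fold change over all genes tested was 0.00038. Against that background, 58 of 79 tested genes on 4 lists of epithelial and junction genes were called, or 73.4%, and 57 of the 58 were higher in 67NR. On 5 lists of metabolic genes, 37 of 194 tested genes were called, or 19.1%. Members and lists were chosen with earlier results of these data known, so the shares describe these lists and are not a test. Of the 57 epithelial and junction genes higher in 67NR, 18 had no count in any 168FARN library and another 11 had 1 to 3 counts in all. These 4 lists held 86 genes, of which 7 had too few counts to be tested, and a gene expressed in 1 line alone passed the filter on low counts through that line.

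**Figure D1:**
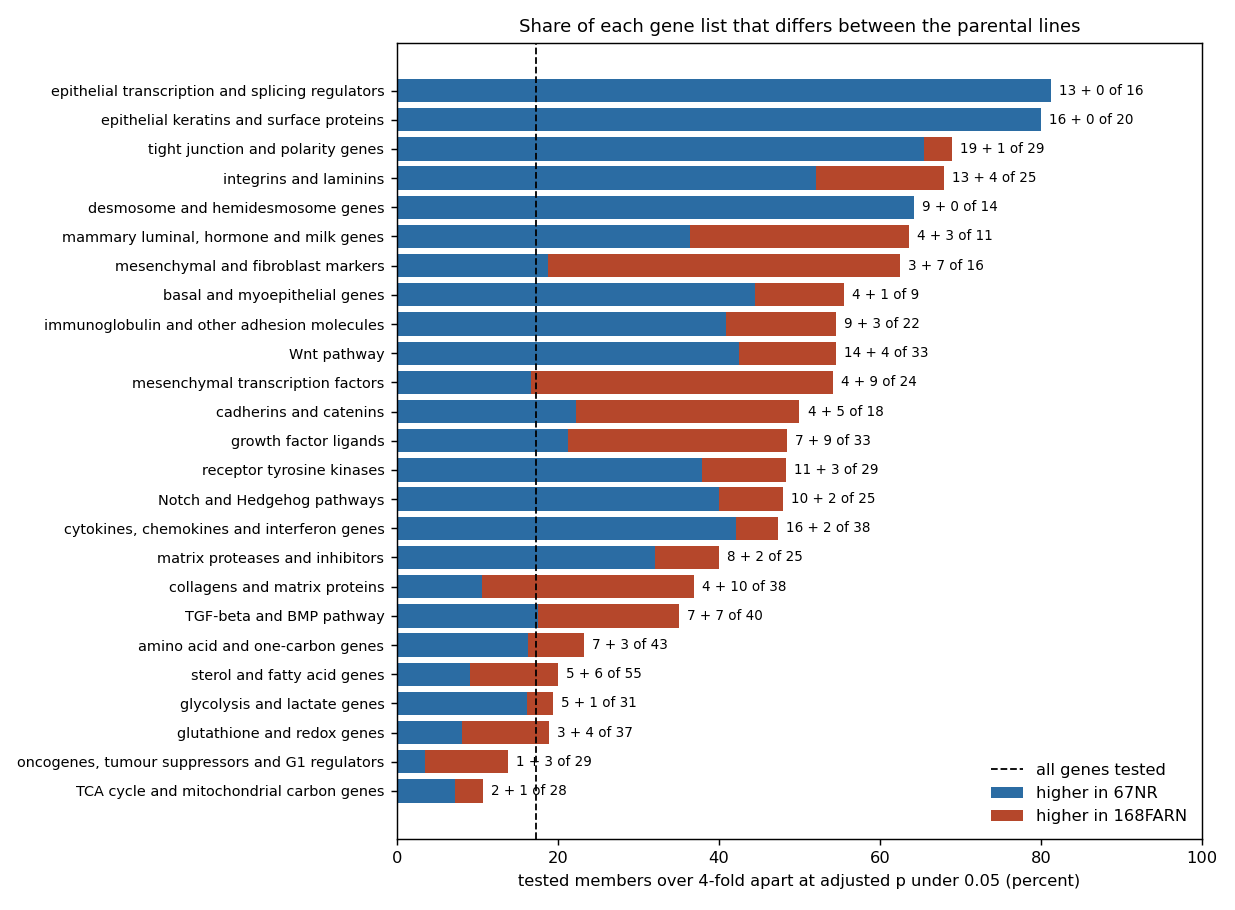
Share of the tested members of each gene list that were called, in percent, with the part higher in 67NR in blue and the part higher in 168FARN in red. Numbers at the bars give the genes higher in 67NR, those higher in 168FARN and those tested, and the dashed line marks the 17.3% called among all genes tested. Lists with fewer than 9 tested genes are left out. The lists of epithelial surface genes and regulators lie at 80% or above and the metabolic lists between 10.7% and 23.3%.

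The labelled tissue was checked first on marker genes. Of 9 luminal epithelial markers, 8 were called higher in 67NR and their summed level was 3521 to 5525 CPM there, against 133 to 418 CPM in 168FARN. *Krt8* gave between 132 and 417 CPM of the 168FARN sum, and 4 of the 9 markers had no count in that line. Of 7 basal or myoepithelial markers, 2 were tested, both were higher in 67NR, and their sums were 0.319 to 0.381 CPM in 168FARN and 10.7 to 24.6 CPM in 67NR. Of 10 fibroblast or mesenchymal markers, 6 were tested and 4 of these were higher in 168FARN. Their sums were 6223 to 6877 CPM there and 278 to 1315 CPM in 67NR. Nearly all of this was *Vim*, at 6064 to 6719 CPM in 168FARN and 264 to 1293 CPM in 67NR. The summed levels of 11 endothelial markers were at most 8.76 CPM and those of 6 adipocyte markers at most 11.5 CPM in any library. The 14 leukocyte markers summed to 23.5 to 105 CPM in 168FARN and 30.4 to 53.8 CPM in 67NR, mainly through *Cd68* and *Cd14*, and the pan-leukocyte gene *Ptprc* had 1 count in all 6 libraries together. The part of these cell types in the differences was not tested. In bulk RNA, fewer cells of a type and less RNA per cell cannot be told apart.

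Most epithelial keratin and surface protein genes were expressed in 67NR and nearly absent from 168FARN. Of 22 genes listed, 20 were tested, 16 were higher in 67NR and 0 were higher in 168FARN, where the count at an unadjusted p under 0.05 and the count by DESeq2 were also 0. The median log2 fold change of the tested members was -10.34, or -9.08 with genes at 0 counts set to their bound. *Epcam* (chr17:88035319-88050446 in mm9), which encodes an epithelial adhesion molecule, had 0 counts in all 3 168FARN libraries and stood at 524, 581 and 668 CPM in 67NR, at least 19175-fold higher (adjusted p = 2.81e-05). The bound is the fold against 3 counts over the 3 libraries together. *Cd24a*, a surface sialoglycoprotein gene, had 0 counts in 168FARN and 419, 488 and 319.7 CPM in 67NR, at least 14013-fold higher. *St14*, the gene of the membrane protease matriptase, had 1 count in 168FARN against 179, 158 and 156 CPM in 67NR, a ratio of 16666 with a 95% counting interval of 2991 to 658307. Intervals and bounds cover counting error only.

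The paired keratins of simple epithelia, *Krt8* and *Krt18*, did not move together. *Krt18* stood at 0.071, 0 and 0.124 CPM in 168FARN and 763, 648 and 1376 CPM in 67NR, a log2 fold change of -13.67 ± 0.78 (SE, adjusted p = 3.14e-05). *Krt8*, its neighbour on chromosome 15, stood at 132, 132 and 417 CPM in 168FARN and 292, 265 and 776 CPM in 67NR. It was lower in 168FARN in each of the 3 same-numbered pairs of libraries, and the lines overlapped through replicate 3, the highest library of both. Its log2 fold change was -0.97 ± 0.60 (adjusted p = 0.264), or -1.02 ± 0.20 (adjusted p = 0.0103) in edgeR with the replicate number as a block, short of the 4-fold threshold either way, so that 168FARN held *Krt8* RNA with almost no RNA of its usual partner.

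The regulators of the epithelial state showed the same direction. Of 17 epithelial transcription and splicing regulators, 16 were tested, 13 were higher in 67NR and 0 were higher in 168FARN, with 0 at an unadjusted p under 0.05 and 0 by DESeq2. *Esrp1*, which directs epithelial splice choices, had 0 counts in 168FARN and 181, 197 and 108 CPM in 67NR, at least 5672-fold higher (adjusted p = 6.41e-05). Its paralog *Esrp2* had 0 counts in 168FARN and 14.1, 11.8 and 10.9 CPM in 67NR. The ETS factor gene *Ehf* was at 0 in 168FARN and at 67.6, 66.7 and 74.7 CPM in 67NR, at least 2294-fold higher. None of these 3 genes had a read in 168FARN, whereas *Grhl2*, a factor gene known to maintain *Cdh1* and claudin expression, stood at 0.993, 1.05 and 2.11 CPM there against 63.9, 64 and 70.3 CPM in 67NR (log2 fold change -5.56 ± 0.37, adjusted p = 5.75e-05). *Ovol2*, a repressor of mesenchymal genes, was at 0 in 168FARN and low in 67NR, at 3.03, 3.45 and 4.75 CPM.

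*Cdh1*, which encodes E-cadherin, the main adhesion receptor of epithelial cells, had 1 count in the 3 168FARN libraries together and stood at 506, 521 and 458 CPM in 67NR (adjusted p = 2.05e-05). The ratio was 50006, with a 95% counting interval of 8975 to 1975140. Tight junction and polarity genes showed the same direction, with 19 of 29 tested genes (of 32 listed) higher in 67NR and 1 higher in 168FARN, and a median log2 fold change of -7.01. The claudin genes *Cldn4* and *Cldn3*, neighbours on chromosome 5, had 0 counts in 168FARN. In 67NR *Cldn4* stood at 478, 408 and 492 CPM, at least 15232-fold higher, and *Cldn3* at 65.5, 43.9 and 142 CPM, at least 2507-fold higher. *Cxadr*, the gene of a tight junction receptor, had 1 count in 168FARN and 572, 627 and 251 CPM in 67NR. The exception was *Cldn6*, a claudin gene known from early embryonic epithelia, which stood at 20.2, 15.9 and 46.1 CPM in 168FARN and 0.31, 0.237 and 3.1 CPM in 67NR (log2 fold change 4.54 ± 1.07, adjusted p = 0.0151).

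Desmosomes anchor keratin filaments at cell borders. Of 14 tested desmosome and hemidesmosome genes (of 15 listed), 9 were higher in 67NR. None was called higher in 168FARN, and that count was also 0 by DESeq2 but 3 at an unadjusted p under 0.05. The desmosomal cadherin genes *Dsg2* and *Dsc2* had 0 counts in 168FARN and stood at 103, 111 and 109 CPM and 25.4, 27.4 and 10.7 CPM in 67NR, at least 3570.1-fold and 760.0-fold higher. *Perp*, which encodes a desmosome-associated membrane protein, had 1 count in 168FARN against 379, 414 and 367 CPM in 67NR. The scaffold gene *Tjp1*, by contrast, did not pass the threshold, with 215, 214 and 204 CPM in 168FARN and 268, 299 and 243 CPM in 67NR (log2 fold change -0.36 ± 0.19, adjusted p = 0.205).

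**Figure D2:**
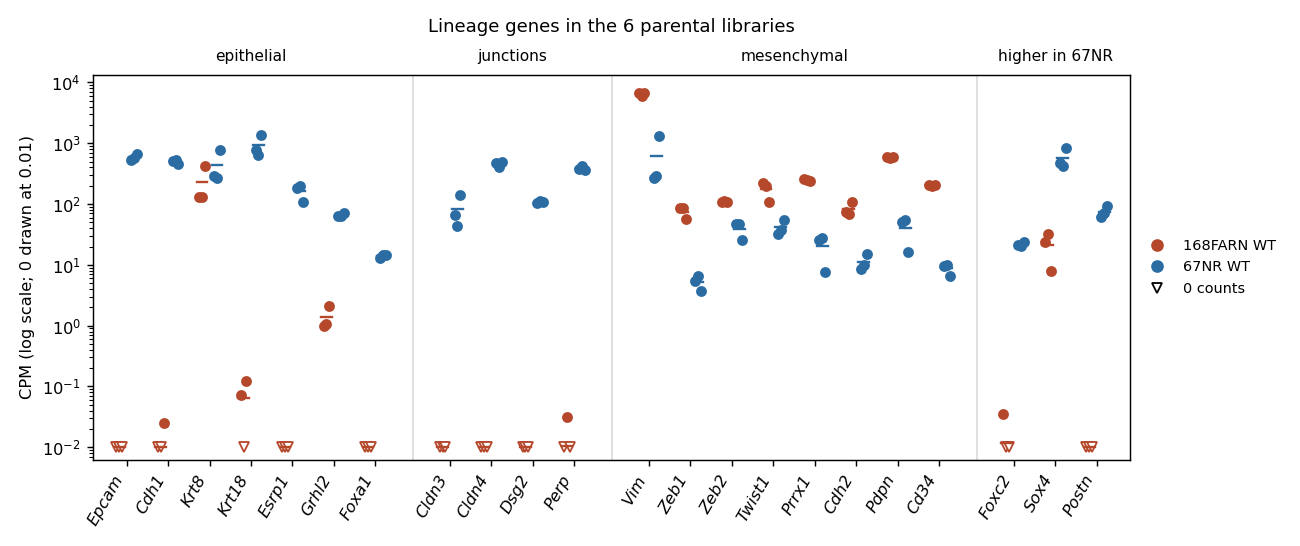
Levels of lineage genes in each of the 6 parental libraries, in CPM on a log scale, with 168FARN in red, 67NR in blue, bars at the mean of 3 replicates and open triangles for 0 counts, drawn at 0.01. *Epcam*, *Esrp1*, *Foxa1*, *Cldn3*, *Cldn4* and *Dsg2* had no count in 168FARN. *Krt8* differed by less than 4-fold and overlapped through replicate 3. *Vim*, *Zeb1*, *Prrx1* and *Cd34* were called higher in 168FARN.

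Promoters of epithelial and junction genes called higher in 67NR were searched on both strands for the E-box letters CACCTG and its reverse complement CAGGTG. Zeb and Snail family proteins are known to bind this core sequence. Windows of 250 bases before to 50 bases after the transcription start were taken from RefSeq (GRCm38.p6). The 57 called genes and *Cdh1* were looked up, and 31 of these 58 genes had a window. *Cdh1* and *Esrp1* had none, so they were not searched. Of the 12994 genes tested, 9890 had a window. The letters occurred in a window of 21 of the 31 genes (67.7%) and of 6098 of 27025 genes of the table (22.6%), and at least 2 times in 13 genes (41.9%) and 897 genes (3.32%). Among genes with 1 window only, the shares were 14 of 23 (60.9%) and 20%. A match is a description of the sequence and does not show that a factor binds there. Epithelial and junction genes not called higher in 67NR were not counted. A part of these letters in the difference between the lines was not tested. The windows of 5 genes, all of which hold the letters, are printed below with the E-box in capitals. They run from 250 bases to 1 base before the start, 5′ to 3′ on the strand of the gene. *Epcam*, *Cldn4*, *Crb3* and *Krt18* were higher in 67NR and *Krt8* was not called.
Epcam: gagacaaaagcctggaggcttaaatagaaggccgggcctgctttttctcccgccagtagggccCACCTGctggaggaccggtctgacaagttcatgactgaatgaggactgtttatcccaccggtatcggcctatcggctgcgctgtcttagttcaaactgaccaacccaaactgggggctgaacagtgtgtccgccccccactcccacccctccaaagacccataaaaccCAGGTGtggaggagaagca
Cldn4: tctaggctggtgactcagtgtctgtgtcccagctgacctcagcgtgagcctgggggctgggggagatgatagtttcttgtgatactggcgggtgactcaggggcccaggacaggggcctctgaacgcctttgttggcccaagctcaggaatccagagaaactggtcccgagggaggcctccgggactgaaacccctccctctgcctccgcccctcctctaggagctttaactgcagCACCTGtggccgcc
Crb3: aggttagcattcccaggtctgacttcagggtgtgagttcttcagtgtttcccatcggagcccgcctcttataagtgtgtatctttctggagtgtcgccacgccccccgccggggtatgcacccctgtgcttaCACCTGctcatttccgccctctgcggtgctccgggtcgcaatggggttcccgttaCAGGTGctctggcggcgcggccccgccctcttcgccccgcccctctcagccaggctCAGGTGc
Krt18: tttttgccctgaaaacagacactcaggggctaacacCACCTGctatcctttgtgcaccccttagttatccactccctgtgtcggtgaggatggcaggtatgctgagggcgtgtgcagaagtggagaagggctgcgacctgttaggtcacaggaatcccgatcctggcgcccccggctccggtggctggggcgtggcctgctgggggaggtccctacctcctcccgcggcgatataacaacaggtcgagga
Krt8: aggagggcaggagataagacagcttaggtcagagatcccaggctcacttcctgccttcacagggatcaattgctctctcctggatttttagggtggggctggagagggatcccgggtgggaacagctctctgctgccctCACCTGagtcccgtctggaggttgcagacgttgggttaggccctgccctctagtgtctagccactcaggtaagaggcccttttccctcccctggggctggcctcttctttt
By exact match to mm9, these stretches lie at chr17:88035069-88035318 (plus strand, *Epcam*), chr5:135422805-135423054 (minus strand, *Cldn4*), chr17:57201374-57201623 (plus strand, *Crb3*), chr15:101858397-101858646 (plus strand, *Krt18*) and chr15:101834774-101835023 (minus strand, *Krt8*). *Crb3*, a polarity gene outside the naming rule that was shown after its values and its 3 E-boxes were seen, had 0 counts in 168FARN and 17.5, 14.1 and 12.6 CPM in 67NR. *Krt8* has the same letters in its window as *Krt18*, and its level differed by less than 4-fold between the lines.

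Markers of mammary lineages were divided. Of 22 luminal, hormone and milk genes, 11 were tested, 4 were higher in 67NR and 3 higher in 168FARN. *Foxa1*, a pioneer factor of luminal cells, had 0 counts in 168FARN and 13.1, 14.6 and 14.7 CPM in 67NR, at least 465-fold higher. *Gata3*, the factor that specifies luminal cells, stood at 63.1, 55 and 23.1 CPM in 168FARN and 160.5, 158 and 321 CPM in 67NR. Its log2 fold change was -2.18 ± 0.46 (adjusted p = 0.00888). It missed the 4-fold threshold without 168FARN replicate 3 (-1.85), without 67NR replicate 3 (-1.76) and without replicate 3 of both lines (-1.44). The milk protein genes *Ltf* and *Csn3* were higher in 67NR. *Ltf* had 0 counts in 168FARN and 80.6, 75.7 and 8.83 CPM in 67NR, and *Csn3* stood at 5.57, 3.37 and 4.27 CPM in 168FARN and 27, 26.7 and 16.2 CPM in 67NR (log2 fold change -2.40 ± 0.33).

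*Esr1*, the estrogen receptor gene, stood at 7.42, 6.16 and 3.16 CPM in 168FARN and 17.2, 18.1 and 7.32 CPM in 67NR and was not called (adjusted p = 0.0607, or 0.0113 with the replicate block, at a log2 fold change of -1.33). *Pgr* had no count in any of the 6 libraries, and *Prlr* and *Elf5* had too few counts to be tested. *Tbx3*, a T-box factor gene of the mammary bud, and *Xdh*, which encodes xanthine dehydrogenase of the milk fat globule membrane, were higher in 168FARN, with log2 fold changes of 3.37 ± 0.26 and 2.46 ± 0.37.

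Basal and myoepithelial genes were at low levels. Of 18 listed, 9 were tested, 4 were higher in 67NR and 1 in 168FARN, or 2 in 168FARN without 67NR replicate 3. *Krt5* had no count in any library, and *Acta2* had too few counts for the test. *Trp63*, the basal master regulator gene, had 0 counts in 168FARN and 7.47, 8.2 and 1.4 CPM in 67NR, and *Krt14* stood at 0.142, 0 and 0.0248 CPM in 168FARN and 3.03, 2.74 and 22.3 CPM in 67NR. The levels of both were spread widely in 67NR, where replicate 3 was the lowest for *Trp63* and the highest for *Krt14*. *Sfn*, the gene of an epithelial 14-3-3 protein, stood at 1.17, 0.762 and 0.273 CPM in 168FARN and 7.94, 6.67 and 42.7 CPM in 67NR (log2 fold change -4.72 ± 0.94).

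Mesenchymal transcription factor genes moved in both directions. Of 30 listed, 24 were tested, 9 were higher in 168FARN, 4 were higher in 67NR and 11 were not called, with a median log2 fold change of 0.29. *Zeb1*, a repressor of *Cdh1*, stood at 84.6, 85 and 56.1 CPM in 168FARN and 5.45, 6.44 and 3.72 CPM in 67NR, a log2 fold change of 3.85 ± 0.31 (adjusted p = 0.000111). *Prrx1*, a homeobox gene of mesenchyme, stood at 258, 246 and 239 CPM in 168FARN and 25.8, 27.2 and 7.69 CPM in 67NR (log2 fold change 3.61 ± 0.48). *Twist2* stood at 19.6, 18.4 and 15 CPM in 168FARN and 0.31, 0.415 and 0.229 CPM in 67NR (log2 fold change 5.77 ± 0.37). *Twist1* stood at 222, 195 and 108 CPM in 168FARN and 32.7, 37.2 and 54.2 CPM in 67NR. Its log2 fold change of 2.08 ± 0.34 lay at the threshold and was 1.87 without 168FARN replicate 1 and 1.93 without 67NR replicate 1. *Foxf2* and *Tbx18*, developmental factor genes of mesenchyme, were also higher in 168FARN, with log2 fold changes of 4.89 ± 0.49 and 4.12 ± 0.43.

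Other repressors of *Cdh1* did not pass the 4-fold threshold. *Zeb2* stood at 109, 114 and 107 CPM in 168FARN and 46.4, 46.5 and 25.8 CPM in 67NR (log2 fold change 1.47 ± 0.27). *Snai2* had a log2 fold change of 1.97 ± 0.43 and went over the threshold without 168FARN replicate 1 (2.16), 168FARN replicate 2 (2.19) or 67NR replicate 2 (2.13). *Snai1* stood at 8.69, 8.26 and 8.4 CPM in 168FARN and 10.6, 11 and 10.2 CPM in 67NR (adjusted p = 0.332). Other mesenchymal factor genes were higher in 67NR. *Foxc2* had 1 count in 168FARN and 21.4, 20.1 and 24 CPM in 67NR, *Osr1* stood at 0.177, 0.413 and 0.472 CPM in 168FARN and 15.8, 15.5 and 14.6 CPM in 67NR, and *Sox4* at 24.1, 32 and 7.88 CPM and 479, 426 and 832 CPM. The log2 fold change of *Sox4*, a SOX factor gene active in many carcinomas, was -4.76 ± 0.59. The lines did not overlap in these 3 genes, nor in the uncalled *Snai1*, so a lack of overlap did not mark a called gene.

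Mesenchymal markers leaned towards 168FARN, with 7 of 16 tested genes (of 22 listed) higher there, 3 higher in 67NR and a median log2 fold change of 2.20. *Vim*, the vimentin gene, stood at 6714, 6064 and 6719 CPM in 168FARN and 264, 291 and 1293 CPM in 67NR, a log2 fold change of 3.40 ± 0.67 (adjusted p = 0.00686). 67NR was thus not without *Vim*, and its replicate 3 held more than the other 2. *Pdpn*, the podoplanin gene, stood at 599, 562 and 591 CPM in 168FARN and 50, 55.4 and 16.2 CPM in 67NR, and *Cd34*, a sialomucin gene of fibroblasts and progenitors, at 207, 197 and 209 CPM and 9.61, 9.99 and 6.54 CPM. Their log2 fold changes were 3.85 ± 0.48 and 4.55 ± 0.25. Genes of this list that were higher in 67NR encode the ectonucleotidase CD73 (*Nt5e*, 5.22, 3.78 and 1.19 CPM in 168FARN and 317, 371 and 117 CPM in 67NR), endoglin (*Eng*, log2 fold change -3.15 ± 0.47) and the adhesion molecule MCAM (*Mcam*, log2 fold change -7.50 ± 0.88).

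**Figure D3:**
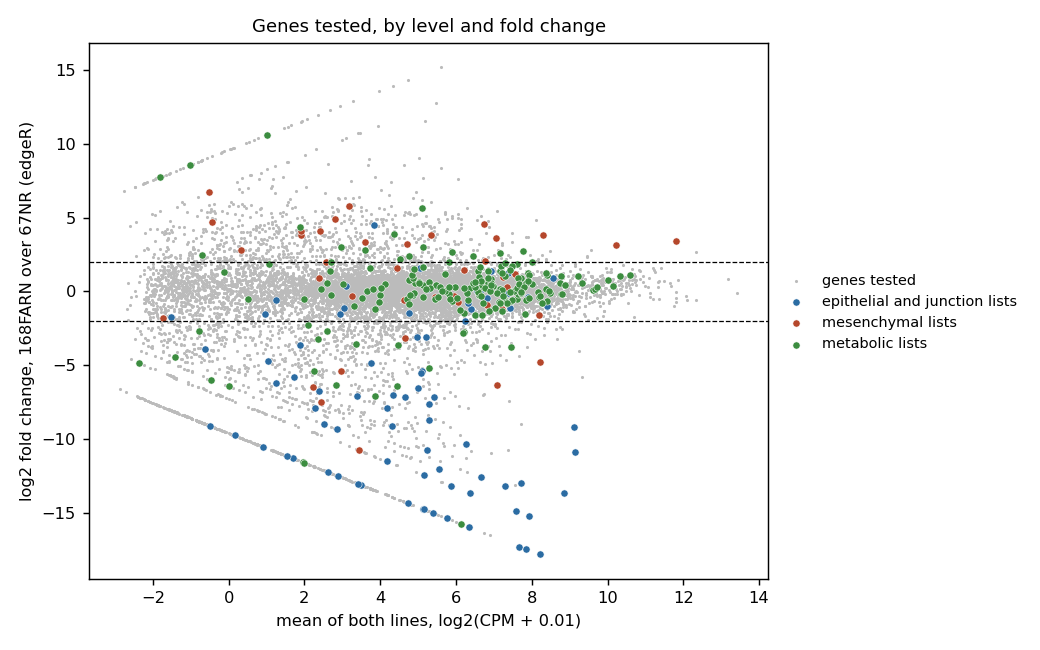
Log2 fold change of 168FARN over 67NR from edgeR against the mean level of both lines, log2(CPM + 0.01), for the 12994 genes tested in grey. Members of the epithelial and junction lists are blue, of the mesenchymal lists red and of the metabolic lists green, and dashed lines mark log2 fold changes of 2 and -2. Genes on the straight lower and upper edges had 0 counts in 1 line, and their fitted values depend on the prior count of the fit. Of 79 tested epithelial and junction genes, 57 were called below the lower line.

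Of 18 tested cadherin and catenin genes (of 29 listed), 5 were higher in 168FARN and 4, *Cdh1* among them, were higher in 67NR. *Cdh2*, the N-cadherin gene, stood at 74.4, 68.3 and 109 CPM in 168FARN and 8.43, 9.86 and 15 CPM in 67NR, a log2 fold change of 2.92 ± 0.32 (adjusted p = 0.000428). *Pcdh7*, a protocadherin gene, stood at 70.8, 70.5 and 103 CPM in 168FARN and 7.56, 8.51 and 2.8 CPM in 67NR. *Pcdh19* had a log2 fold change of 2.28 ± 0.34, which was 1.93 without 168FARN replicate 3. In the other direction, *Cdh10* had 0 counts in 168FARN and 24.2, 26 and 11.6 CPM in 67NR. The genes of α-catenin, β-catenin and p120-catenin were not called. *Ctnnb1*, the β-catenin gene, stood at 339.9, 317 and 462 CPM in 168FARN and 1332, 1501 and 1120.3 CPM in 67NR, with a log2 fold change of -1.82 ± 0.26 that did not reach the 4-fold threshold.

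Of 25 tested integrin and laminin genes (of 31 listed), 13 were higher in 67NR and 4 higher in 168FARN. *Itga2*, a collagen receptor gene, had 0 counts in 168FARN and 15.1, 12.7 and 10.9 CPM in 67NR. *Itgb6*, the epithelial partner of *Itgav*, stood at 0, 0.127 and 0 CPM in 168FARN and 15.3, 16.6 and 16.8 CPM in 67NR, and *Lama3*, a chain of epithelial laminin-332, at 0.142, 0.191 and 0.298 CPM and 22.1, 21.8 and 39.3 CPM. *Itgb7*, best known from lymphocytes, was higher in 168FARN, at 74.5, 76.2 and 61 CPM in 168FARN and 3.34, 2.4 and 2.68 CPM in 67NR (log2 fold change 4.65 ± 0.25, adjusted p = 2.96e-05). *Itga10* passed at an adjusted p of 0.0461 and overlapped between the lines, and its adjusted p ranged from 0.0888 to 0.122 without 168FARN replicate 1 or 2 or without any one 67NR library. *Itga7* fell from a log2 fold change of 2.11 to 1.94 without 67NR replicate 2. Without that library 1 gene of the list was higher in 168FARN, and without 168FARN replicate 1 or 2 the count was 2. The broadly expressed *Itgb1* stood at 981, 965 and 1001 CPM in 168FARN and 976, 1059 and 804 CPM in 67NR (log2 fold change 0.05 ± 0.23).

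Among immunoglobulin and other adhesion molecules, 9 of 22 tested genes (of 26 listed) were higher in 67NR and 3 higher in 168FARN, or 5 without 168FARN replicate 3. *Cadm1*, a cell adhesion and tumour suppressor gene, stood at 229, 245 and 319 CPM in 168FARN and 6.35, 7.18 and 4.84 CPM in 67NR (log2 fold change 5.43 ± 0.28, adjusted p = 2.81e-05). *Flrt2* had a log2 fold change of 3.64 ± 0.44. *Icam1*, a leukocyte ligand gene, stood at 0, 0.127 and 0.0248 CPM in 168FARN and 14.6, 13.6 and 16.4 CPM in 67NR. *Bcam*, a laminin receptor gene, had 3 counts in 168FARN and 12.8, 10.5 and 10.5 CPM in 67NR, and *Nectin4*, listed in the tables as *Pvrl4*, stood at 0.319, 0.318 and 0.224 CPM and 15.9, 12.4 and 12.2 CPM.

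*Col1a1*, a chain of the main fibroblast collagen, stood at 1.14, 0.794 and 1.17 CPM in 168FARN and 1.22, 1.3 and 4.54 CPM in 67NR and was not called (adjusted p = 0.191). *Fn1*, the fibronectin gene, stood at 3437, 3931 and 782 CPM in 168FARN and 5848, 5717 and 1866 CPM in 67NR. It was lower in 168FARN in each of the 3 pairs, with replicate 3 the lowest in both lines, and its log2 fold change was -0.72 ± 0.66 (adjusted p = 0.452), or -0.85 ± 0.25 (adjusted p = 0.0383) in edgeR with the replicate block. Of 38 tested collagen and matrix genes (of 49 listed), 10 were higher in 168FARN and 4 higher in 67NR. The 168FARN genes included collagens VI and V. *Col6a3* stood at 44.8, 44.4 and 23.2 CPM in 168FARN and 0.417, 0.593 and 0.138 CPM in 67NR (log2 fold change 6.57 ± 0.59), *Col5a2* had a log2 fold change of 4.46 ± 0.43 and *Col5a3* of 3.62 ± 0.51. The genes higher in 67NR included the matricellular genes *Postn* and *Thbs1*. *Postn*, periostin, had 0 counts in 168FARN and 61.1, 70 and 94.5 CPM in 67NR, at least 2385-fold higher, and *Thbs1*, thrombospondin, stood at 20.7, 15.5 and 32.6 CPM and 1083, 1104 and 1614 CPM. *Col7a1*, which forms the anchoring fibrils beneath epithelia, had a log2 fold change of -3.95 ± 0.29.

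Of 25 tested genes of matrix proteases and their inhibitors (of 33 listed), 8 were higher in 67NR and 2 higher in 168FARN. *Serpine2*, a protease inhibitor gene, had 0 counts in 168FARN and 49.6, 50.8 and 18.2 CPM in 67NR. *Adam12* had 1 count in 168FARN and 23.4, 23.2 and 27 CPM in 67NR, and the membrane protease gene *Mmp15* stood at 0.106, 0.381 and 0.0248 CPM and 36, 30.2 and 19.3 CPM. *Mmp3*, the stromelysin gene, did not pass the 4-fold threshold, at 6.88, 7.24 and 4.99 CPM in 168FARN and 24.8, 25.8 and 14.2 CPM in 67NR (log2 fold change -1.76 ± 0.32, adjusted p = 0.00482). *Mmp19* was higher in 168FARN with an adjusted p of 0.0382, which ranged from 0.0629 to 0.0892 without 168FARN replicate 1 or 2 or without any one 67NR library. Without any of these except 67NR replicate 3, the list held 1 gene higher in 168FARN.

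The lines differed in which growth factor receptors they expressed. Of 42 receptor tyrosine kinase genes, 29 were tested, 11 were higher in 67NR and 3 higher in 168FARN. The 3 were the platelet-derived growth factor receptor genes and *Fgfr1*. *Pdgfra* stood at 145, 140.1 and 76.6 CPM in 168FARN and 11.1, 13.2 and 14.9 CPM in 67NR, a log2 fold change of 3.21 ± 0.31 (adjusted p = 0.000244). *Pdgfrb* stood at 14.2, 16.4 and 4.27 CPM and 1.11, 0.875 and 0.688 CPM, and *Fgfr1* at 131, 134 and 73.7 CPM and 14.4, 13.2 and 8.9 CPM. The lines did not overlap in these 3 genes, a trait that the uncalled *Erbb2* shared. *Egfr* was nearly absent from 168FARN at 0.106, 0.0953 and 0 CPM and low in 67NR at 2.8, 3.17 and 2.23 CPM (log2 fold change -5.39 ± 0.82). *Erbb3*, which signals with *Erbb2*, stood at 1.38, 2.13 and 0.298 CPM in 168FARN and 15.8, 13.9 and 8.67 CPM in 67NR, whereas *Erbb2* itself, at 23.5, 23 and 25.6 CPM and 38.5, 34.2 and 52.4 CPM, was not called. The Eph receptor gene *Epha1* had 1 count in 168FARN and 38.8, 31.5 and 36.1 CPM in 67NR, and *Epha4* had a log2 fold change of -6.29 ± 0.53. *Ltk*, a receptor gene related to *Alk*, had 4 counts in 168FARN and 11.8, 9.36 and 13.4 CPM in 67NR.

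Growth factor genes moved in both directions, with 9 of 33 tested ligands (of 41 listed) higher in 168FARN and 7 higher in 67NR. *Gas6*, the ligand of the Axl receptor, stood at 68.3, 76.3 and 15.4 CPM in 168FARN and had 0 counts in 67NR, at least 3217-fold higher in 168FARN (adjusted p = 0.000756). Its receptor gene *Axl* was expressed in both lines and not called, at 752, 798 and 1527 CPM and 420.4, 426 and 407 CPM. *Fgf10*, a ligand for epithelial FGF receptors, stood at 95.7, 80.9 and 33.3 CPM in 168FARN and 0.417, 0.415 and 0.138 CPM in 67NR, and *Igf2*, an imprinted growth factor gene, at 151, 179.6 and 67.5 CPM and 0.763, 1.07 and 0.161 CPM. Their log2 fold changes were 7.70 ± 0.63 and 7.60 ± 0.76. *Tgfa*, a ligand of EGFR, had 0 counts in 168FARN and 69.9, 75.9 and 62.4 CPM in 67NR, at least 2342-fold higher. *Pdgfb* stood at 0, 0.254 and 0 CPM in 168FARN and 45.7, 41.5 and 91.7 CPM in 67NR, so that the ligand RNA was found in 67NR and the higher receptor RNA in 168FARN. *Angpt1*, an angiopoietin gene, had 8 counts in 168FARN and 28.2, 30.6 and 8.72 CPM in 67NR.

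**Figure D4:**
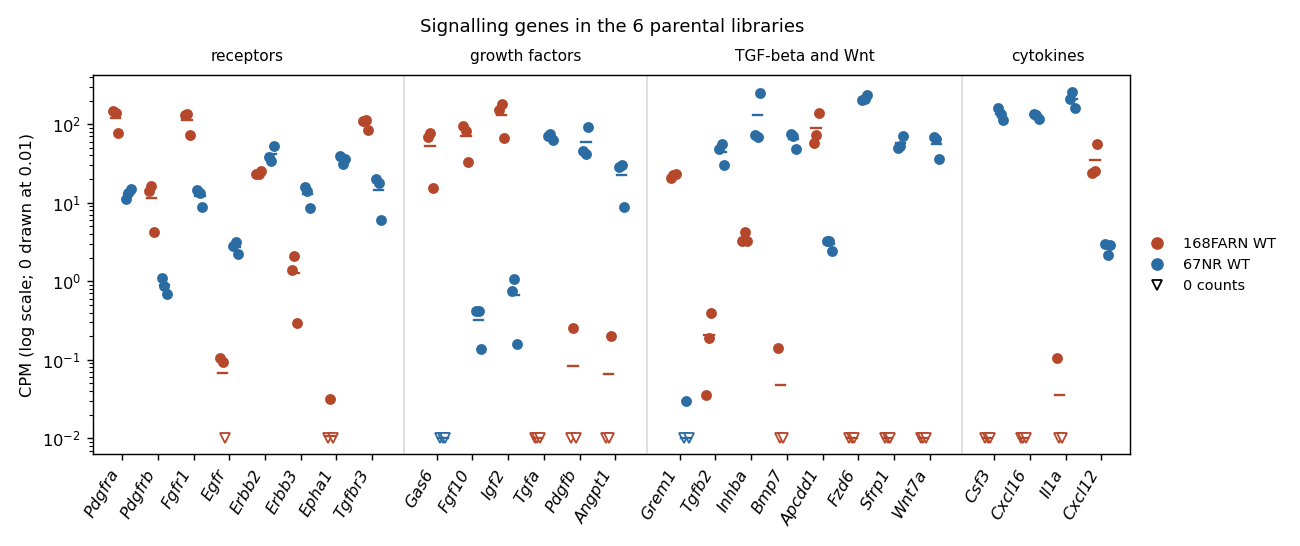
Levels of signalling genes in each of the 6 parental libraries, in CPM on a log scale, with 168FARN in red, 67NR in blue, bars at the mean of 3 replicates and open triangles for 0 counts, drawn at 0.01. *Pdgfra*, *Fgfr1*, *Gas6*, *Fgf10*, *Igf2* and *Grem1* were higher in 168FARN, while *Tgfa*, *Fzd6*, *Sfrp1*, *Wnt7a*, *Csf3* and *Cxcl16* had no count in that line.

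In the TGF-β and BMP pathway 40 of 49 genes were tested, 7 were called in each direction. *Tgfb2* stood at 0.0355, 0.191 and 0.398 CPM in 168FARN and 48.5, 55.6 and 29.8 CPM in 67NR (log2 fold change -7.65 ± 0.66). *Inhba*, the activin A subunit gene, stood at 3.23, 4.22 and 3.28 CPM in 168FARN and 72.4, 68.5 and 249 CPM in 67NR, and *Bmp7* at 0.142, 0 and 0 CPM and 74.1, 70.7 and 48 CPM. These ligand genes were higher in 67NR. *Grem1*, a secreted BMP antagonist gene, stood at 20.4, 22.3 and 23.2 CPM in 168FARN and had 2 counts in 67NR, a ratio of 2158 with a 95% counting interval of 597 to 17828. *Tgfbr3*, the betaglycan gene, was higher in 168FARN with a log2 fold change of 2.83 ± 0.44. The signalling receptor genes *Tgfbr1* and *Tgfbr2* stayed under the threshold, with log2 fold changes of -1.28 ± 0.28 and -1.69 ± 0.20.

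Of 55 Wnt pathway genes, 33 were tested, 14 were higher in 67NR and 4 higher in 168FARN. The receptor gene *Fzd6* had 0 counts in 168FARN and 202, 209 and 234 CPM in 67NR, at least 7040.4-fold higher (adjusted p = 2.81e-05). The ligand gene *Wnt7a* and the antagonist gene *Sfrp1* also had 0 counts in 168FARN, against 68.1, 65.5 and 36.2 CPM and 49.3, 53 and 71.4 CPM in 67NR. *Apcdd1*, an inhibitor gene of the pathway, was higher in 168FARN, at 57.4, 71.9 and 139.8 CPM against 3.29, 3.28 and 2.41 CPM (log2 fold change 4.90 ± 0.42). In the Notch and Hedgehog pathways 25 of 33 genes were tested, 10 were higher in 67NR and 2 higher in 168FARN, or 4 without 168FARN replicate 3 and 1 without either of the other 168FARN libraries. *Nrarp*, a Notch target gene, had 0 counts in 168FARN and 16.7, 16.1 and 18.7 CPM in 67NR. *Lfng*, which modifies Notch receptors, stood at 0.816, 0.286 and 0.795 CPM and 9.98, 8.04 and 13.7 CPM. The Hedgehog co-receptor genes went opposite ways, with *Gas1* at 123, 115 and 79.8 CPM in 168FARN and 3.78, 5.89 and 1.08 CPM in 67NR, and *Cdon* at 3.3, 5.27 and 4.32 CPM and 56.9, 53.6 and 29.9 CPM.

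Of 38 tested cytokine, chemokine and interferon genes (of 46 listed), 16 were higher in 67NR and 2 in 168FARN, or 1 without 168FARN replicate 1 or 2 or without 67NR replicate 3. *Csf3*, which encodes the granulocyte growth factor G-CSF, had 0 counts in 168FARN and 159.8, 135 and 113 CPM in 67NR, at least 4694-fold higher (adjusted p = 3.35e-05). *Cxcl16*, a membrane-bound chemokine gene, had 0 counts in 168FARN and 136, 131 and 116 CPM in 67NR, and *Il1a*, the interleukin-1α gene, had 3 counts in 168FARN and 212, 253 and 160.1 CPM in 67NR. *Cxcl12*, a chemokine gene of stromal cells, was higher in 168FARN, at 23.8, 25.4 and 56.4 CPM against 3.03, 2.16 and 2.89 CPM (log2 fold change 3.71 ± 0.42). *Il11* lay at the threshold with a log2 fold change of 2.04 ± 0.36, and the value was 1.91 without 168FARN replicate 1 or 2 and 1.86 without 67NR replicate 3. The interferon-response gene *Isg15* overlapped between the lines.

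Oncogenes, tumour suppressors and G1 regulators were called in 4 of 29 tested genes (13.8%, of 32 listed), against 17.3% of all genes. *Cdkn2a*, which encodes p16 and p19 Arf, stood at 29.9, 25.1 and 9.27 CPM in 168FARN and 1.13, 0.845 and 0.734 CPM in 67NR (log2 fold change 4.56 ± 0.52, adjusted p = 0.00051). *Cdkn1a*, the p21 gene, stood at 298, 338 and 167 CPM in 168FARN and 43.5, 36.2 and 11.7 CPM in 67NR (log2 fold change 3.13 ± 0.53). Both encode inhibitors of cyclin-dependent kinases. *Ccne1* was called at a log2 fold change of 2.93 ± 0.68, with 8.98, 10.2 and 37.8 CPM in 168FARN and 1.73, 1.73 and 4.04 CPM in 67NR. Replicate 3 was the highest library of 168FARN, and without it the log2 fold change was 1.95. The adjusted p of *Ccne1* was 0.0553 without 67NR replicate 1 and 0.0582 without 67NR replicate 2. *Mycl*, a gene outside the naming rule, was named after its values were seen as the 1 gene of the list higher in 67NR, at 9.13, 8.33 and 6.49 CPM against 0 counts in 168FARN. Without 67NR replicate 3, 2 genes of the list were higher in 67NR. The genes that the series knocks out elsewhere, *Kmt2c* and *Kmt2d*, were not called between the WT lines, and neither was *Kdm6a*. *Kmt2c* stood at 121, 113 and 47.8 CPM in 168FARN and 58.6, 65.3 and 55.6 CPM in 67NR (log2 fold change 0.65 ± 0.35), *Kmt2d* at 171, 169.5 and 112 CPM and 115, 101 and 84.6 CPM (0.59 ± 0.24) and the demethylase gene *Kdm6a* at 74.6, 59.4 and 48.7 CPM and 44.5, 49.2 and 37 CPM (0.48 ± 0.23).

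Metabolic genes were called at shares between 10.7% and 23.3%, against 17.3% of all genes. In glycolysis 6 of 31 tested genes were called (19.4%, of 40 listed), 5 of them higher in 67NR. *Aldoc*, the brain-type aldolase gene, stood at 0.177, 0.127 and 0.323 CPM in 168FARN and 27.5, 20.5 and 39.2 CPM in 67NR, and *Eno2*, the neuronal enolase gene, at 0.355, 0.159 and 0.0248 CPM and 16, 14.8 and 11.4 CPM. The main isoform gene *Aldoa* was not called, at 1157, 1056 and 1706 CPM and 615, 497 and 1213 CPM. It was higher in 168FARN in each of the 3 pairs, with an adjusted p of 0.191, or 0.0338 in edgeR with the replicate block at a log2 fold change of 0.83. *Pfkfb3*, which makes the activator of phosphofructokinase, had a log2 fold change of -3.62 ± 0.40 and was higher in 67NR. *Ldha*, the lactate dehydrogenase gene, overlapped, at 318, 336 and 1739.8 CPM and 356, 347 and 469.9 CPM, with 168FARN replicate 3 above the rest. Without 67NR replicate 3 the list held 3 genes higher in 168FARN in place of 1, and without 168FARN replicate 2 or 3 it held 2. In the TCA cycle list 3 of 28 tested genes were called (10.7%, of 29 listed). *Pcx*, pyruvate carboxylase, was higher in 168FARN at 12.8, 11.4 and 17.6 CPM against 2.03, 1.39 and 1.86 CPM (log2 fold change 2.98 ± 0.33), and *Me3*, a mitochondrial malic enzyme gene, was higher in 67NR with -2.70 ± 0.61.

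Amino acid and one-carbon genes were called in 10 of 43 tested cases (23.3%, of 51 listed), 7 higher in 67NR and 3 in 168FARN. *Bcat1*, the cytosolic branched-chain aminotransferase gene, stood at 46, 49.7 and 106 CPM in 168FARN and 1.38, 2.11 and 0.459 CPM in 67NR (log2 fold change 5.66 ± 0.65, adjusted p = 0.000549). *Slc38a1*, a glutamine transporter gene, was higher in 67NR at 215, 229 and 166 CPM against 16.9, 17.9 and 10.1 CPM, and *Cth*, cystathionine γ-lyase, had a log2 fold change of -2.75 ± 0.54. *Slc7a11*, the cystine transporter gene, was called higher in 67NR, with 27, 27.8 and 17.8 CPM in 168FARN and 464, 503 and 20.1 CPM in 67NR. Replicate 3 of 67NR lay within the range of 168FARN, and the adjusted p of 0.0245 ranged from 0.0622 to 0.0728 without any one 168FARN library or without 67NR replicate 1 or 2.

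Of 63 sterol and fatty acid genes, *Hmgcs1* was not in both tables and 55 were tested, 6 higher in 168FARN and 5 in 67NR (20%). *Elovl7*, a fatty acid elongase gene, had 0 counts in 168FARN and 153, 184 and 81.9 CPM in 67NR, at least 4924-fold higher. *Fads3*, a desaturase gene, stood at 1.74, 1.91 and 2.48 CPM in 168FARN and 97.1, 84.3 and 45.8 CPM in 67NR, and *Ppargc1a*, a coactivator gene of mitochondrial biogenesis, at 0.816, 0.54 and 0.224 CPM and 54, 62.4 and 12.3 CPM. These were higher in 67NR. The lipid transport genes *Abca1* and *Vldlr* were higher in 168FARN, with log2 fold changes of 3.90 ± 0.59 and 2.68 ± 0.59, as was the carnitine transferase gene *Cpt1c* (2.83 ± 0.41). The core synthesis genes *Fasn* and *Sqle* were not called, and *Fasn* had an adjusted p of 0.0673, or 0.0239 in edgeR with the replicate block at a log2 fold change of -0.84. The cholesterol synthesis gene *Fdps* was not called either, and its levels, 51.6, 51.7 and 259 CPM in 168FARN and 61.4, 55.5 and 241 CPM in 67NR, were higher in replicate 3 of both lines than in replicates 1 and 2, and overlapped between the lines.

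Redox genes were called in 7 of 37 tested cases (18.9%, of 43 listed), 4 of them higher in 168FARN. *Srxn1*, sulfiredoxin, stood at 242, 259 and 233 CPM in 168FARN and 37.5, 38.3 and 43.4 CPM in 67NR, a log2 fold change of 2.62 ± 0.19 (adjusted p = 6.98e-05). *Hmox1*, heme oxygenase, stood at 148, 157 and 134 CPM and 34.3, 28.5 and 20.8 CPM, and *Aldh3a1*, an aldehyde dehydrogenase gene, at 81.7, 82.3 and 23.1 CPM and 9.69, 8.59 and 5 CPM. *Mgst1*, a microsomal glutathione transferase gene, was higher in 67NR with a log2 fold change of -2.85 ± 0.51. The number of redox genes higher in 168FARN was 10 without 67NR replicate 3 and 9 without replicate 3 of both lines. In 67NR replicate 3 stood above replicates 1 and 2 for *Nqo1*, at 3.67, 3.97 and 18.4 CPM, which overlapped with 61.2, 58 and 16.3 CPM in 168FARN.

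**Figure D5:**
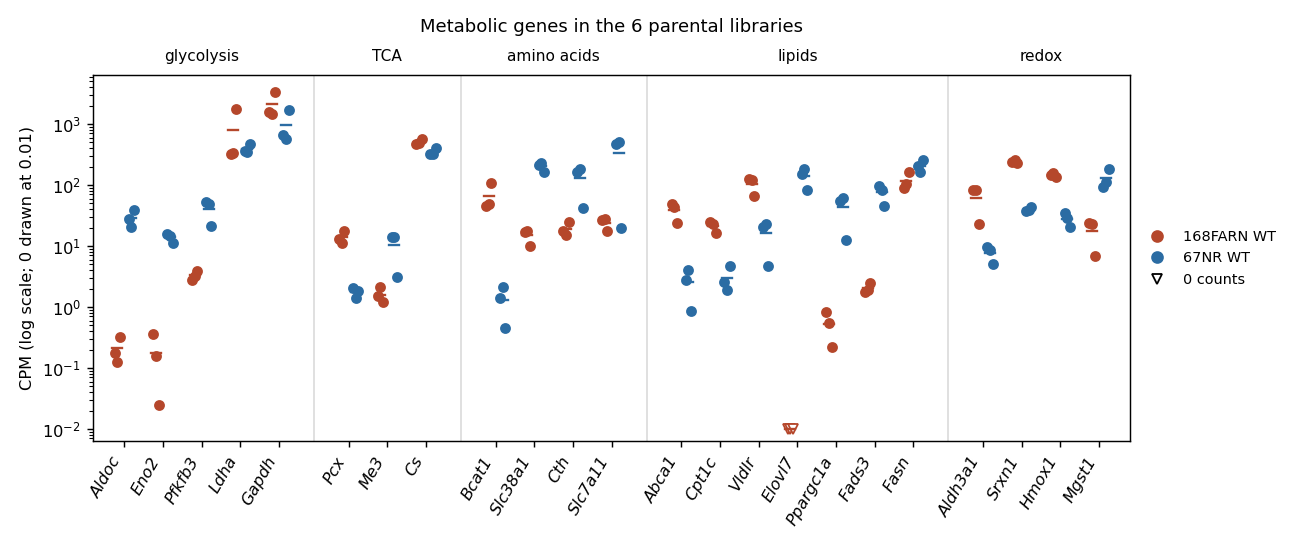
Levels of metabolic genes in each of the 6 parental libraries, in CPM on a log scale, with 168FARN in red, 67NR in blue, bars at the mean of 3 replicates and open triangles for 0 counts, drawn at 0.01. *Aldoc*, *Eno2*, *Slc38a1* and *Elovl7* were higher in 67NR and *Bcat1*, *Abca1* and *Srxn1* in 168FARN, while *Ldha*, *Gapdh* and *Slc7a11* overlapped. *Gapdh* was higher in 168FARN in each of the 3 pairs.

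Over all genes, 5 called genes per direction are named by fold change, among those with a mean of at least 10 CPM in the higher line, and 5 by p-value. In 67NR the largest folds belonged to *Epcam*, *Cldn4*, *Cd24a*, the serine protease gene *Tmprss11e* (358, 412 and 443 CPM, 0 counts in 168FARN) and *Mal2*, a gene of apical transport in epithelia (255, 301 and 163 CPM, 0 counts in 168FARN). The smallest p-values belonged to *St14*, *Cdh1*, *Perp*, the epithelial surface antigen gene *Gpa33* (log2 fold change -10.94 ± 0.32) and the vesicle fusion gene *Stxbp2* (-7.19 ± 0.26). In 168FARN the largest folds belonged to *Gas6*, the neurofilament gene *Nefl* (43.3, 47.6 and 198 CPM), the RNA export factor gene *Nxf3* (46.8, 40.4 and 34.1 CPM), *Plxdc1* (39.2, 45.6 and 8.5 CPM) and the germ cell gene *Morc1* (22.9, 23.7 and 12 CPM), and all 5 had 0 counts in 67NR. The smallest p-values belonged to *Cox7b2* (log2 fold change 7.45 ± 0.29), *Gm364* (8.34 ± 0.35), *Arhgef10* (5.82 ± 0.25), the cyclophilin gene *Ppic* (5.10 ± 0.24) and the actin regulator gene *Evl* (5.18 ± 0.25).

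Of 6 sex chromosome genes listed, the 1 tested was *Xist*, the RNA of the inactive X chromosome, with 694, 560.3 and 343 CPM in 168FARN and 15.1, 18.6 and 20.8 CPM in 67NR (log2 fold change 4.87 ± 0.35, adjusted p = 7.11e-05). The other 5 genes of that list had no count in either line. *Tsix*, the antisense partner of *Xist*, was one of them, and reads of a gene and its antisense partner cannot be told apart where counting ignores strand. Of 405 tested genes on the X chromosome, 13.8% were higher in 168FARN, and on the 19 autosomes 3.47% to 8.07% were.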

How the data were processed

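RNA-seq was measured in 3 168FARN WT and 3 67NR WT libraries, with 28282313 to 78955350 counts each. The authors used a stranded mRNA kit, ran STAR within VIPER against mm9, and deposited raw counts of reads per gene symbol, without normalization, in a table for each line. How strand was set in the counting is not given in the sources used here, so counts of overlapping and antisense genes are uncertain. Library groups came from the sample labels.

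The tables were joined on 24333 symbols present in both. Of the rest, 27 and 23 symbols had no partner, some of them symbols written as dates, and they took at most 0.396% of a WT library. Positions came from an mm9 annotation that matched 20485 symbols by name and 1516 by an older name. Promoter sequences came from a RefSeq table (GRCm38.p6) and were placed on mm9 by exact match.

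Counts were tested with edgeR 4.0.16 in R 4.3.3 (quasi-likelihood, robust, TMM, its filter on low counts by line), with line as the only factor on the 6 libraries and Benjamini-Hochberg adjustment over 12994 genes. The SE of a log2 fold change was derived as its absolute value over the square root of the test's F statistic. DESeq2 1.42.0 was an alternative. The code was tested on simulated data. Genes with 0 counts in a line are given a bound against 3 counts, and those with 1 to 3 counts an exact 95% interval of the ratio. The 29 gene lists were written from general knowledge. Members and lists were chosen with earlier results of these data known. Named were a fixed set of lineage, receptor and chromatin genes, up to 3 called genes per list and direction with the largest fold change at a mean of at least 10 CPM, and over all genes 5 per direction by fold change and 5 by p-value. Some genes that the rule names are not reported here. Members of a list that were not called were named where a comparison needed them. Precision per library is set by counting error at these depths and by the spread between 3 replicates. The alternatives were other scalings, tests, filters, thresholds and library subsets, and the effect of each is given in the closing section.

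The test has no block for the replicate number, as in the study's own test by genotype. The replicate numbers were treated as pairing the libraries, since deviations from the line mean correlated at 0.259, 0.274 and 0.336 for the same numbers. Replicates 1 and 2 were not told apart, as different numbers among them correlated at 0.236 and 0.405, while replicate 3 correlated at -0.268 to -0.365 with the others.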

Additional observations from a re-analysis of the deposited data

How the results depend on the processing

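Against 804 genes higher in 168FARN and 1450 higher in 67NR, a log2 fold change over 1 in place of 2 gave 1406 and 2087 genes, and edgeR's test against the 4-fold threshold itself (glmTreat) gave 461 and 1055. Leaving out 1 library in turn gave 713 to 978 genes higher in 168FARN and 1372 to 1543 higher in 67NR. DESeq2 gave 993 and 1669, replicates 1 and 2 of each line alone gave 1108 and 1630, and libraries thinned to equal totals gave 770 and 1366. No called gene was called in the opposite direction in any of the 21 alternatives. The replicate block, which pairs libraries by number, gave 811 and 1457 genes and changed the call of no named gene. Of the genes named in the text, it brought *Krt8*, *Fn1*, *Esr1*, *Aldoa*, *Gapdh* and *Fasn* under an adjusted p of 0.05 at fold changes under 4-fold. With replicates 1 and 2 alone, 7 of 58 list counts moved by over 1.5 times. Adhesion genes and redox genes higher in 168FARN went from 3 to 5 and from 4 to 9, collagen and matrix genes higher in 67NR from 4 to 7, and from 1 to 2 went endothelial and oncogene or tumour suppressor genes higher in 67NR and leukocyte and glycolysis genes higher in 168FARN. Levels below 1 CPM rest on few reads, and line, table and control sgRNA cannot be told apart at any depth.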

Other observations

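Genes that no list of the report held, or that the naming rule left out, were looked through after their values were seen, so they are given as values with no test. In 168FARN several genes known from embryonic stem cells and the germ line were expressed. They were picked singly and no list of such genes was counted, so a wider stem cell or germ line programme was not tested. *Sox2*, a pluripotency factor gene, stood at 74.2, 67.2 and 75.1 CPM in 168FARN and 0, 0 and 0.0917 CPM in 67NR. The neighbours *Dppa4*, *Dppa2* and *Morc1* on chromosome 16 were all expressed in 168FARN, with *Dppa4* (chr16:48283848-48294405 in mm9) at 34.4, 33.7 and 24.2 CPM and *Dppa2* (chr16:48310590-48319836) at 84.8, 77.2 and 40.4 CPM. In 67NR *Dppa4* stood at 0, 0 and 0.0459 CPM and *Dppa2* at 0.715, 1.27 and 0.78 CPM. *Nlrp4e*, an oocyte gene, stood at 13.8, 12.1 and 19.9 CPM in 168FARN and 0, 0 and 0 CPM in 67NR.

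Some inflammatory genes of the cytokine list that the naming rule left out, picked after their values were seen, stood at higher levels in 67NR. That list is counted above, with 16 of 38 tested genes higher in 67NR, 2 higher in 168FARN and 20 not called. *Lif*, an IL-6 family cytokine gene, stood at 5.04, 5.78 and 6.83 CPM in 168FARN and 79.4, 71.6 and 83 CPM in 67NR. *Cxcl1*, a neutrophil chemokine gene, stood at 70.3, 54.8 and 51.7 CPM and 363, 442 and 504 CPM, and *Csf2*, the GM-CSF gene, at 0.177, 0.159 and 0.0497 CPM and 17.4, 20.6 and 7.09 CPM. *Tnf* and *Il1b* had 0 counts in 168FARN and stood at 0.846, 1.48 and 1.63 CPM and 0.584, 1.39 and 0.597 CPM in 67NR. The glucose transporter gene *Slc2a3* went the other way, at 0.781, 0.826 and 1.29 CPM in 168FARN and 0 counts in 67NR.

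Silent genes were unequally shared. Of 9040 genes with a mean of at least 10 CPM in 67NR, 117 had 0 counts in all 3 168FARN libraries, and of 8743 such genes in 168FARN, 8 had 0 counts in 67NR. With every library thinned to 28282313 counts, the numbers were 124 of 9095 and 9 of 8695. Genes outside the epithelial lists were among the 117, such as *Trim44* at 97.4, 114 and 55.8 CPM, *Zfp280d* at 69.6, 79.8 and 77.3 CPM, *Fam135a* at 106, 116 and 72.1 CPM and *Myo1d* at 59, 55.1 and 20.6 CPM in 67NR. The *Kmt2c* KO and *Kmt2d* KO libraries were outside the comparison. In the 6 of 168FARN together, *Trim44* had 1 count and the other genes had none. In the 6 of 67NR, scaled by library totals alone, *Trim44* stood at 7.18 to 43.8 CPM and *Zfp280d* at 10.3 to 49.5 CPM. *Fam135a* stood at 10 to 66.1 CPM and *Myo1d* at 6.49 to 26.7 CPM in those libraries. Median log2 fold changes by chromosome ranged from -0.29 on chromosome 1 to 0.46 on chromosome 7.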
